A study of Canis lupus familiaris with 45 samples.

Results

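The arrays described here are the 11 of 45 canine fat arrays that carried skeletal muscle transcripts. They were chosen by the measured values of 5 genes of fast muscle fibres, TNNI2, TNNC2, MYL1, MYH2 and MYLPF. Each gene was read at its brightest probe set, the 5 log2 values were averaged on each array, and an array was placed in the class with muscle transcripts when that marker mean was above 6. The other 34 arrays form the class without muscle transcripts. Because the classes were made from these values, no test between the classes is given for the 5 genes. The differences of other skeletal muscle genes are given as a description of the arrays.

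The RNA came from subcutaneous adipose tissue of 9 intact female beagles, 4 years old. Every dog was sampled fasted, before the feeding began (week 0) and at weeks 4, 8, 12 and 24. Controls were 4 dogs (numbers 1, 3, 4 and 9) fed to keep their starting body weight. The 5 ad libitum dogs (numbers 2, 5, 6, 7 and 8) ate freely from week 0 onward, and all 9 dogs received the same diet, Purina Pro Plan Performance Formula. Each dog gave 1 array per week, so the groups hold 4 or 5 arrays, and arrays of 1 dog are not independent samples.

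Skeletal muscle fibres contract when calcium binds the troponin complex on the thin filament and myosin heads pull on actin. Fast and slow fibres use different genes for the same parts of this machine, so that the troponins, myosin heavy chains and myosin light chains present show which kinds of fibre gave the RNA. Fat cells and the vessels, fibroblasts and immune cells around them do not make these sarcomere proteins, whereas smooth muscle of the vessel wall uses its own actins and myosin.

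Before the comparisons, the arrays were checked against their labels. Over 100 probe sets that separate the dogs, 43 of 45 arrays were most like the other arrays of their labelled dog, including all 11 arrays with muscle transcripts. At week 8 the libraries labelled dog 5 and dog 9 each matched the other dog, and both belong to the class without muscle transcripts. As a check of the fat label, ADIPOQ, the adipokine adiponectin, was between 14.72 and 15.96 on the 34 arrays and between 14.75 and 15.80 on the 11. The number of probe sets above 4, the level read here as the upper edge of background, was 20114 to 20758 on the 34 arrays and 20221 to 20980 on the 11.

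The marker mean ran from 2.42 to 3.89 on the 34 arrays. In ascending order, the 11 values were 6.64 in ad libitum dog 7 at week 24, 9.75 in ad libitum dog 7 at week 12, 10.73 in ad libitum dog 8 at week 0 and 12.02 in control dog 4 at week 24. Next came 13.96 in ad libitum dog 7 at week 8, 14.50 in ad libitum dog 5 at week 0 and 14.55 in control dog 3 at week 24. The 4 highest were 15.28 in control dog 1 at week 0, 15.56 in control dog 4 at week 8, 15.60 in ad libitum dog 7 at week 0 and 15.82 in control dog 3 at week 0. The array just inside the threshold was thus at 6.64 and the one just outside, control dog 9 at week 4, at 3.89. No array lay between, and a threshold of 5 made the same classes.

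**Figure D1:**
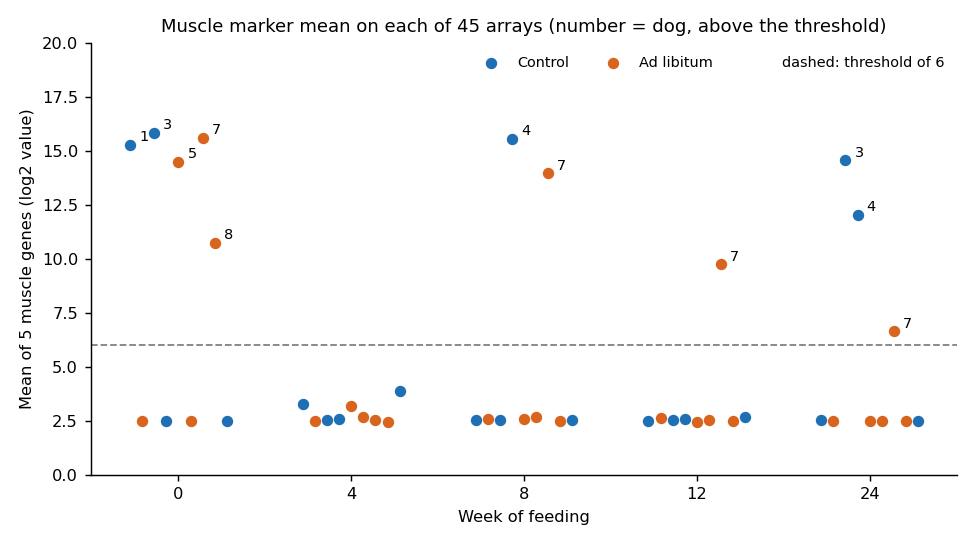
Mean log2 value of TNNI2, TNNC2, MYL1, MYH2 and MYLPF (vertical axis) on each of 45 arrays by week of feeding (horizontal axis, categories). Blue points are control dogs, orange points ad libitum dogs, the dashed line is the threshold of 6, and numbers name the dogs above it: 5 arrays at week 0, 0 at week 4, 2 at week 8, 1 at week 12 and 3 at week 24.

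The marker mean was above the threshold on 6 of 25 ad libitum arrays and 5 of 20 control arrays. Dog 7 had 4 such arrays, dogs 3 and 4 had 2 each, dogs 1, 5 and 8 had 1 each, and dogs 2, 6 and 9 had 0. A count of 0 does not mean that no marker rose above background. Under the threshold, control dog 9 at week 4 had TNNC2 at 4.59, MYL1 at 4.57 and MYLPF at 4.26. Ad libitum dog 5 at week 4 had MYL1 at 4.17. The feeding groups averaged 1.2 arrays per ad libitum dog and 1.25 per control dog, a difference of -0.05 (exact two-sided permutation test over all splits of the 9 dogs into 5 and 4, p = 1.0). A single split carries a weight of 0.00794, and tied counts make the smallest possible p larger than that. These counts include week 0, before the feeding began, with 3 of 5 ad libitum and 2 of 4 control arrays. The test therefore does not isolate an effect of feeding. After week 0, the ad libitum arrays were 1 each at weeks 8, 12 and 24, all of dog 7, and the control arrays 1 at week 8 and 2 at week 24. By week the counts were 5 of 9 arrays at week 0, 0 at week 4, 2 at week 8, 1 at week 12 and 3 at week 24. By the batch number in the labels they were 4 of 8 in batch 1, 1 of 7 in batch 2, 1 of 8 in batch 3, 2 of 8 in batch 4, 0 of 5 in batch 5 and 3 of 9 in batch 6, which is the whole of week 24. A dog's own later samples therefore show both states: dog 4 was without muscle transcripts at weeks 0, 4 and 12 and with them at weeks 8 and 24.

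The 5 marker genes gave nearly the same order of arrays. TNNI2, the inhibitory troponin subunit of fast fibres, was at 7.42, 10.73, 11.67, 12.77, 14.26, 14.92, 15.19, 15.50, 15.55, 15.67 and 15.50 on the 11 arrays in ascending order of marker mean, and at 1.86 to 2.86 (median 1.93) on the other 34. TNNC2, the calcium-binding troponin subunit of fast fibres, reached 4.59 and MYL1, a fast myosin light chain, reached 4.57 on the 34, both on the array of control dog 9 at week 4. For both genes the lowest of the 11 arrays was higher, at 7.07 and 7.38. MYH2, the heavy chain of the fast oxidative fibre, was at 7.09 to 15.76 on the 11 and at no more than 3.84 on the 34. Only MYLPF, the regulatory light chain of fast fibres, overlapped between the classes: it was 4.22 on the array of dog 7 at week 24 and 4.26 on that of dog 9 at week 4.

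How much of the muscle gene programme was seen depended on the array. The lists hold 131 genes of skeletal muscle, other than the 5 markers, that have a probe set with a single gene symbol. In ascending order of marker mean, 7, 27, 38, 47, 61, 64, 65, 87, 103, 91 and 99 of these genes were above their highest value on the 34 arrays. The matching share of all probe sets on each array was not counted, so the low counts cannot be told apart from it. The lowest array, dog 7 at week 24, was thus above the other class for 7 of 131 genes and not for ACTA1, the skeletal actin, which was 11.46 there against 8.98 to 11.80. In bulk tissue, fewer muscle cells in a sample and less RNA per muscle cell cannot be told apart.

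Across all probe sets, 318 of 22683 (1.40%) differed between the classes at an adjusted p under 0.05, with the 7 probe sets of the marker genes set aside. Of these, 304 (1.34% of those tested) were higher and 14 (0.0617%) were lower on the arrays with muscle transcripts. A difference is the log2 value with minus without muscle transcripts from a fit with 1 mean per feeding group and week, the batch, and the dog as a random block. The probe sets with an unadjusted p under 0.05 were 933 higher and 720 lower, and the median difference of all those tested was -0.06. Of the 304, 133 belonged to 68 genes of the skeletal muscle lists, 68 had no single gene symbol, and the rest covered 71 other genes. On the 34 arrays, 195 of the 304 averaged under 4, so that 1 side of these differences is array background. The dog block hardly entered, with a correlation of 0.00428, and without it 321 probe sets passed. With the replicate block as fixed dog terms, which uses differences within dogs, 112 passed, all of them among the 318.

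Single dogs and arrays moved that count by more than 1.5 times. Left out in turn, dog 3 gave 87, dog 4 gave 185, dog 9 gave 207 and dog 7 gave 566. The count was 180 with the array of dog 3 at week 0 alone left out. Leaving out the 2 week-8 arrays that go against their labels gave 308.

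No overlap between the classes is a stricter description. It held for 12 of 22683 probe sets on the higher side (0.0529%) and for 0 on the lower side. These 12 were probe sets of TNNT3 (2), TTN (2), ACTA1 (2), MYH1, TNNC1, CMYA5, ATP2A1 and CKMT2, and 1 with no single gene symbol. The brightest probe sets of TTN, ACTA1, ATP2A1 and CKMT2 are not among them. The values of 2 of them follow: TNNT3, the troponin subunit that ties the fast complex to tropomyosin, and MYH1, the heavy chain of a fast glycolytic fibre. TNNT3 was at 3.78, 7.40, 8.75, 9.70, 12.26, 12.46, 12.57, 14.17, 14.99, 14.86 and 15.24 on the 11 arrays in ascending order of marker mean and at no more than 2.77 on the 34. MYH1 was at 6.48, 7.52, 8.56, 12.78, 10.28, 14.95, 12.12, 14.52, 14.69, 15.92 and 15.86, against no more than 3.63. MYH1 did not keep to the order of the marker mean: dog 4 at week 24 exceeded dog 7 at week 8 for this gene.

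A gene at background on the 34 arrays could enter the test only through the 11 arrays where it was high, so the calls in the muscle lists are a description, and genes that were not tested are counted with the rest. Each list's count is followed by the count with the replicate block as fixed dog terms. Of the 10 fast-fibre genes with a probe set, 6 were called higher at their brightest probe set (5 with fixed dog terms), 1 was tested and not called, and 3 were too low to be tested. The fitted difference was 8.28 (SE 0.686) for MYH1, 8.23 (SE 0.736) for TNNT3 and 6.59 (SE 0.915) for ACTN3, the Z-disc actinin of fast fibres. The fit uses 1 variance per probe set for both classes, whereas the SD of MYH1 was 3.44 on the 11 arrays and 0.143 on the 34. The SEs and adjusted p of such genes, here and in the other muscle lists, can therefore be too small. ACTN3 was at background, 3.31, on both of the lowest arrays and between 7.55 and 15.68 on the other 9. MYH4, the heavy chain of the fastest fibre, stayed between 3.25 and 4.65 on the 11 arrays, and PVALB, the calcium buffer parvalbumin, between 2.57 and 3.02. Both were thus at or near background even where MYH1 was near 16. The heavy chain genes are close copies of each other in sequence, and whether a probe set also caught a neighbour's transcript was not tested.

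Slow-fibre genes divided the 11 arrays in a way that the fast-fibre markers did not. MYH7, the slow heavy chain, was at 4.97, 8.46, 8.01, 9.70, 8.58, 8.25, 3.48, 12.86, 15.05, 14.08 and 14.95 in ascending order of marker mean, against 2.72 to 4.95 on the 34 arrays. TNNT1, which anchors the slow troponin complex, was at 4.08, 8.75, 9.03, 9.49, 9.56, 9.36, 2.43, 13.64, 15.67, 14.84 and 15.29, against 2.38 to 2.53. Both genes were highest on the 4 arrays with the highest marker means and at a middle level on 5 of the others. The array of control dog 3 at week 24 stands apart, since it had MYL2, the slow regulatory light chain, at 2.21, MYL3 at 3.15, TNNT1 at 2.43 and MYH7 at 3.48, each within the range of the 34 arrays. Of the 10 slow-fibre genes with a probe set, 3 were above all 34 arrays there, and the matching share of all probe sets was not counted. On that same array the fast genes ACTN3 and MYH1 were at 12.49 and 12.12.

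The mean of MYH7, MYL2, MYL3, TNNC1 and TNNT1 was compared with the mean of the fast genes TNNT3, MYH1, ACTN3 and MYBPC2 on each array. The slow mean minus the fast mean was 0.10 in control dog 1 at week 0, 0.27 in ad libitum dog 7 at week 0 and 0.29 in control dog 3 at week 0. It was -8.32 in control dog 3 at week 24 and -3.64 in ad libitum dog 5 at week 0. At the other end it was 3.02 in ad libitum dog 7 at week 12 and 1.94 in control dog 4 at week 8. The same dog 3 thus had equal means within 0.3 at week 0 and a slow mean of 3.62 at week 24. That value is under 4 but just above the highest of the 34 arrays. TNNC1, which heart and slow muscle share, was still at 6.82 there. Dog 7 went from 0.27 at week 0 to -1.84 at week 8 and 3.02 at week 12. On the 34 arrays the fast mean was 2.85 to 3.20 and the slow mean 2.83 to 3.57, levels near background. These differences compare sets of probe sets, whose brightness is not the same per molecule, so the share of each fibre cannot be read from them. The order of arrays is limited too where genes of 1 set are at background. That was so for ACTN3 in dog 7 at week 12 and for MYL2 in dog 3 at week 24, and there the difference also depends on the background level.

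**Figure D2:**
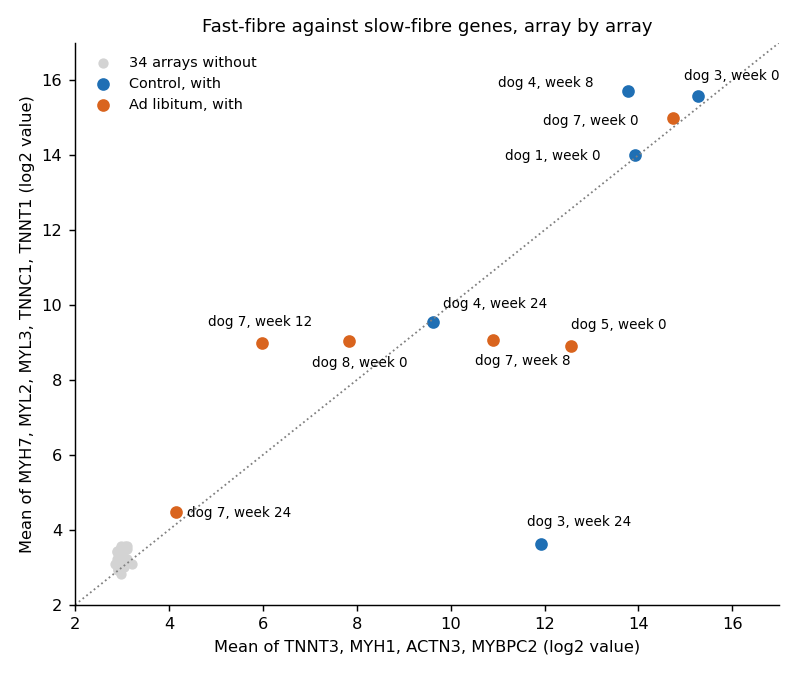
Mean log2 value of 4 fast-fibre genes (horizontal axis) against that of 5 slow-fibre genes (vertical axis), 1 point per array, with the 11 arrays named and the dotted line marking equal values. The 34 arrays without muscle transcripts (grey) lie together at the lower left, and control dog 3 at week 24 lies at 11.94 on the fast axis and 3.62 on the slow axis.

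Of the 10 slow-fibre genes with a probe set, 8 were called higher (6 with fixed dog terms). The fitted difference was 7.36 (SE 0.838) for MYL2, 6.93 (SE 0.803) for TNNT1 and 6.68 (SE 0.682) for TNNC1, the calcium-binding troponin subunit of slow fibres. MYOZ2, a Z-disc protein of slow fibres, was at 2.16 to 4.27 on 7 of the 11 arrays and at 9.97, 12.14, 12.64 and 13.52 on the 4 with the highest marker means.

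Thin filament and Z-disc genes were the broadest group. Of 24 genes with a probe set, 17 were called higher (12 with fixed dog terms) and 3 were too low to be tested. The differences were 8.02 (SE 0.674) for MYOZ1, a calcineurin-binding Z-disc protein, 6.35 (SE 0.96) for KLHL41 and 6.14 (SE 0.806) for ACTN2, an alpha-actinin. ACTA1 was at 11.46 on the lowest array and then at 15.30, 15.43, 16.42, 17.04, 17.19, 17.31, 17.51, 17.51, 17.51 and 17.17. It was therefore nearly flat over the upper 7 arrays, 3 of them at the maximum of the whole table, while MYOZ2 differed widely between them. Another ACTA1 probe set did not overlap between the classes, with 10.45 as the lowest of the 11 and 7.52 as the highest of the 34. The actins are near-identical in sequence, and how far the ACTA1 probe set also reads other actins was not tested. TPM1, a tropomyosin that fat also expresses, shows that the probe set matters: the brightest one differed by -0.18 (SE 0.16), and another rose by 2.24 (SE 0.377, adjusted p = 0.000364).

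Giant scaffold genes appeared in steps. CMYA5 was above all 34 arrays on each of the 11, from 2.17 to 14.00 against no more than 1.92. NEB, nebulin, the ruler of the thin filament, was at 2.50, 2.72 and 2.80 on the lowest 3 arrays and between 5.78 and 12.94 on the other 8. TTN, titin, which spans the sarcomere from Z disc to M band, exceeded 7 on 4 arrays at its brightest probe set, at 7.10, 9.57, 11.40 and 12.37. A dimmer TTN probe set was at 5.51 or more on all 11 arrays and at no more than 2.27 on the 34. Of 7 genes of the titin and M band list with a probe set, 6 were called higher and 1 was too low to be tested. With fixed dog terms 2 were called. Among the 6 were MYOM2 with 5.00 (SE 0.841) and UNC45B, a myosin chaperone, with 3.41 (SE 0.679).

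Genes that couple excitation to calcium release were seen on the arrays with high marker means. Of 17 with a probe set, 6 were called higher, 3 were tested and not called, and 8 were too low to be tested. With fixed dog terms 1 was called. The largest differences were those of SMPX at 4.47 (SE 0.773), STAC3 at 3.29 (SE 0.641) and HRC at 2.93 (SE 0.57). CACNA1S, the voltage sensor of the transverse tubule, was at 2.71 to 2.75 on the lowest 4 arrays and at 4.98 to 10.76 on the other 7. RYR1, the calcium release channel, was at 2.23 to 2.45 on the 11 arrays and 2.19 to 2.32 on the 34, so its probe set read background throughout. For ATP2A1, the fast-fibre calcium pump, the brightest probe set differed by -0.15 (SE 0.141), but another averaged 10.55 against 2.37.

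The fuel genes of muscle included several that fat expresses too. Of 22 genes of muscle energy supply with a probe set, 13 were called higher, and 6 with fixed dog terms. The largest differences were 6.34 (SE 0.709) for PYGM, muscle glycogen phosphorylase, 6.02 (SE 0.753) for MB, the oxygen store myoglobin, and 5.54 (SE 0.641) for ENO3, the muscle enolase. MB was at 7.93, 10.48, 10.05, 11.61, 12.89, 12.22, 12.42, 15.03, 15.28, 15.24 and 15.35 on the 11 arrays, and ranged from 2.83 to 10.38 on the 34. MB therefore overlapped between the classes, and its median on the 34 arrays was 7.60. AMPD1, the AMP deaminase of muscle, was at 2.14 to 2.21 on the lowest 3 arrays and at 5.53 to 13.02 on the other 8. CKMT2, the mitochondrial creatine kinase, differed by 0.04 (SE 0.2) at its brightest probe set, whereas another averaged 9.63 against 2.50. No probe set carried the single symbol CKM or TNNI1, and these are not described.

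Of 15 membrane and turnover genes with a probe set, 7 were called higher, and 4 with fixed dog terms. The largest were MYPN with 5.02 (SE 0.893), CAV3, the caveolin of muscle, with 4.12 (SE 0.713), and TRIM54 with 3.21 (SE 0.563). Outside the lists, the 10 named genes with the largest differences were APOBEC2, RPL3L, ADSS1, TMOD4, PPP1R27, PDLIM5, UCP3, DHRS7C, RTN2 and PEBP4, between 3.33 and 6.84. Several have a known role in muscle: RPL3L is a muscle form of a ribosomal protein, TMOD4 caps thin filaments, ADSS1 serves the muscle purine cycle, and UCP3 is a mitochondrial carrier. ADSS1 overlapped widely between the classes, at 6.12 to 12.88 against 2.74 to 9.62. UCP3 was at 4.26 to 12.23 against 3.62 to 4.86.

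Some genes of the nerve contact and of fetal muscle were high on 1 array alone, that of control dog 4 at week 8. These genes were picked from the lists after their values were seen, and other genes of the same lists were above the 34 arrays elsewhere: among 9 nerve contact genes 4 were on that array and 3 on that of dog 3 at week 0, and among 12 myogenic genes 5 and 4. The share of all probe sets above the 34 arrays was not counted for either array. On the array of dog 4, CHRNA1 and CHRNG, the alpha and the fetal gamma subunit of the acetylcholine receptor, were at 9.39 and 8.73. On the other 10 arrays with muscle transcripts they were at 1.91 to 1.98 and 1.83 to 1.86, and on the 34 arrays at no more than 2.05 and 1.90. CHRND, another receptor subunit, was at 4.85 there and at no more than 2.23 on the 44 other arrays.

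The same array had the actin of heart and fetal muscle, ACTC1, at 12.42, against 3.41 to 5.19 on all other arrays. TNNT2, the troponin of heart and fetal muscle, was at 11.83, but it was also seen without muscle transcripts, at 3.99 to 8.41 (median 6.61) on the 34 arrays. On the array of dog 4 at week 8, MYL4, the atrial and embryonic light chain, was at 8.53, and HSPB3, a small heat shock protein of muscle, at 9.96. MYOD1 and MYOG, factors that drive myoblast differentiation, were at 3.62 and 2.90 there, above the 34 arrays but under 4. CHRNE, the adult receptor subunit, was at 1.76 on this array. Other heart genes of the list were not above the 34 arrays there: MYL7 was at 2.53, MYBPC3 at 2.48, NPPB at 2.19 and RYR2 at 2.71, and TNNI3 at 6.19 was under the highest of the 34, 7.59. This array also had the highest MYH7 and TNNT1 values of the series. The cause of the difference was not tested, and dog 4 had no muscle transcripts at weeks 0, 4 and 12 and had CHRNG at 1.85 at week 24.

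MYH3, the embryonic heavy chain, did not follow these genes. It was at 2.82, 2.82, 5.01, 2.83, 11.04, 11.26, 11.67, 10.78, 13.78, 12.62 and 14.40 in ascending order of marker mean, so that 7 arrays were above 10. It was the single called gene of the 5 in the embryonic list, where 1 gene was called with fixed dog terms. RAPSN, which anchors the receptor, and MYF6, the myogenic factor of mature fibres, were seen on the arrays with the highest marker means. MYF6 was at 6.61, 9.49, 8.34 and 9.12 on the top 4 and at no more than 3.31 on the other 7. PAX7 and MYF5, marks of satellite cells, were at 1.80 to 1.86 and 3.18 to 3.32 on the 11 arrays, against 1.81 to 1.87 and 3.16 to 3.44 on the 34. Both read background on every array. Neither list had a further call: 0 of 1 tested gene at the nerve contact and 0 of 3 myogenic factors passed limma's test, with 0 and 1 at an unadjusted p under 0.05. CHRNB1, another receptor subunit, had a difference of 0.16 (SE 0.0952), MYF6 1.69 (SE 0.523) and MEF2C, a factor of muscle and other tissues, 0.69 (SE 0.348).

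**Figure D3:**
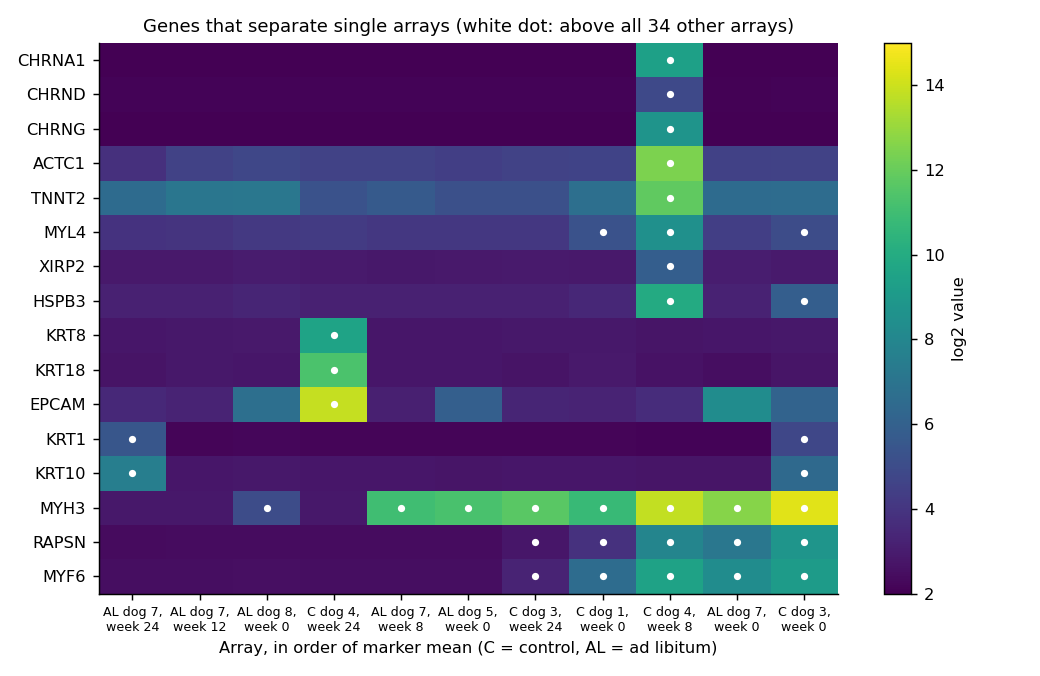
Log2 values (colour) of 16 genes on the 11 arrays with muscle transcripts, ordered from left to right by marker mean. White dots mark values above all 34 other arrays: CHRNA1, CHRNG and ACTC1 stand out on control dog 4 at week 8, KRT8, KRT18 and EPCAM on control dog 4 at week 24, and KRT1 and KRT10 on 2 arrays.

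Markers of skin and gland epithelium moved with single arrays of this class. On the array of control dog 4 at week 24, the gland keratins KRT8 and KRT18 were at 9.53 and 11.33 and the epithelial adhesion gene EPCAM at 13.86. The 34 arrays reached 3.05, 3.91 and 9.00 for these genes. The smooth muscle genes MYH11, ACTG2 and CNN1 were also highest of the 11 there, at 13.12, 13.20 and 10.05, although the 34 arrays reached 13.37, 13.31 and 10.44. The epidermal keratins KRT1 and KRT10 were at 5.50 and 7.55 in dog 7 at week 24 and at 4.76 and 6.45 in dog 3 at week 0. On all other arrays they were at no more than 2.29 and 2.90. Of 8 epithelial genes with a probe set, 3 were tested and 0 were called by limma, with 1 higher at an unadjusted p under 0.05 (PERP 0.71, SE 0.331, and DSP, a desmosome gene, 0.07, SE 0.169). The part of these cells in other differences on those arrays was not tested.

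Of 18 adipocyte genes tested, limma called 0 in either direction, beside 1.40% of all probe sets, so that a count of 0 in so short a list is near the background share. The number at an unadjusted p under 0.05 was 0 as well, with a median difference of -0.13 beside -0.06 over all probe sets. ADIPOQ averaged 15.44 ± 0.346 (SD, n = 11) against 15.54 ± 0.285 (SD, n = 34), a fitted difference of -0.16 with a 95% interval of -0.42 to 0.09. FABP4, the fatty acid carrier of fat cells, differed by -0.06 (-0.23 to 0.11), PPARG, the master factor of fat cells, by -0.14 (-0.67 to 0.39) and LEP, leptin, by 0.21 (-0.74 to 1.16). The 2 adipocyte genes with the smallest p were CFD (-0.23, interval -0.52 to 0.07) and LPL (-0.34, interval -0.80 to 0.12).

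Among the 11 arrays, the mean of 7 adipocyte markers did vary. It was 13.60, 13.46 and 13.39 on the 3 arrays with the lowest marker means and 12.30, 12.85, 12.52 and 11.77 on the 4 with the highest, with 11.45 in dog 3 at week 24. On the 34 arrays it was 11.62 to 13.89, so 10 of the 11 lay inside that range. Within dogs, the mean of the 18 genes was lower with muscle transcripts in 4 dogs and higher in 2, from -0.92 in dog 3 to 0.30 in dog 5.

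Of 23 fat synthesis genes tested, 0 were called by limma and 0 had an unadjusted p under 0.05, with a median difference of -0.11. Within dogs, the list mean was lower with muscle transcripts in 5 of 6 dogs, by up to -1.29 in dog 3, and higher by 0.21 in dog 8. It was lower in 4 of 5 batches. On the arrays of control dogs 3 and 4 at week 24 the list mean was 8.81 and 9.40, under all 34 arrays, of which the lowest was 9.85. FASN, fatty acid synthase, differed by -0.43 (-1.16 to 0.30) and SCD, a desaturase, by -0.11 (-0.30 to 0.08). The 2 with the smallest p were ACSL1 (0.39, interval -0.14 to 0.92) and FADS1 (-0.58, interval -1.48 to 0.32).

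Genes of 3 mitochondrial lists mostly had positive differences, and none passed the test. These lists leave out muscle forms such as COX6A2 and CKMT2, which stand in the muscle energy list, and UCP3, which is in no list. In the respiratory chain list 38 of 40 tested genes had a positive difference, with a median of 0.21, and 0 were called by limma. At an unadjusted p under 0.05 there were 9 higher and 0 lower, beside 933 higher and 720 lower of all 22683 probe sets. NDUFB5 of complex I had 0.54 (SE 0.198, adjusted p = 0.313) and was called in 1 of 37 alternatives, the one without dog 7. NDUFA4, another gene of the chain, had 0.33 (SE 0.124). The direction was not shared by all arrays: the list mean was higher with muscle transcripts in batches 1, 2 and 4, by 0.30, 0.82 and 0.32, and lower in batches 3 and 6, by -0.25 and -0.23. In the citric acid cycle 12 of 15 genes were positive (median 0.14, 2 at unadjusted p, IDH3B with 0.65 and IDH3A with 0.48) and in fatty acid oxidation 15 of 17 (median 0.15, 1 at unadjusted p). CPT1B, the muscle form of the carnitine transferase, had a difference of 1.33 (SE 0.406, adjusted p = 0.124). It was at 3.07 to 8.76 on the 11 arrays against 2.58 to 4.42. DECR1, an auxiliary enzyme of the same pathway, had 0.49 (SE 0.263).

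In the lists not counted as skeletal muscle, 3 genes passed the test. HSPB7, a small heat shock protein of muscle, had a fitted difference of 3.06 (SE 0.593, adjusted p = 0.00209). It was at 2.57 to 11.23 on the 11 arrays against 2.00 to 4.84 on those without muscle transcripts. On the latter it averaged 2.97, under 4 and thus at background, so its call is a description, as in the muscle lists. Its SD was 3.07 on the 11 arrays and 0.437 on the others, so its SE and adjusted p can be too small. HSPB7 was the single call of 13 heat shock genes tested, and the call was lost with fixed dog terms, without dog 3 and in only the dogs with both kinds of array. SLC2A4, the insulin-dependent glucose carrier GLUT4 of muscle and fat, had a fitted difference of 1.03 (SE 0.243, adjusted p = 0.0166). Its median was 3.54 with and 3.48 without muscle transcripts, both under 4, the level read here as the upper edge of background. The class means were 4.10 and 3.48, so the SLC2A4 probe set was near background in both classes. GYG1, the primer of glycogen synthesis, rose by 0.72 (SE 0.18, adjusted p = 0.0297). They were the 2 calls among 16 genes of glucose uptake and insulin signalling. Both classes overlapped for SLC2A4, at 3.17 to 6.29 against 2.31 to 5.88, and its call was lost in 9 of 36 alternatives, among them the one with fixed dog terms and the one without dog 3. That of GYG1 was lost in 14 of 37.

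**Figure D4:**
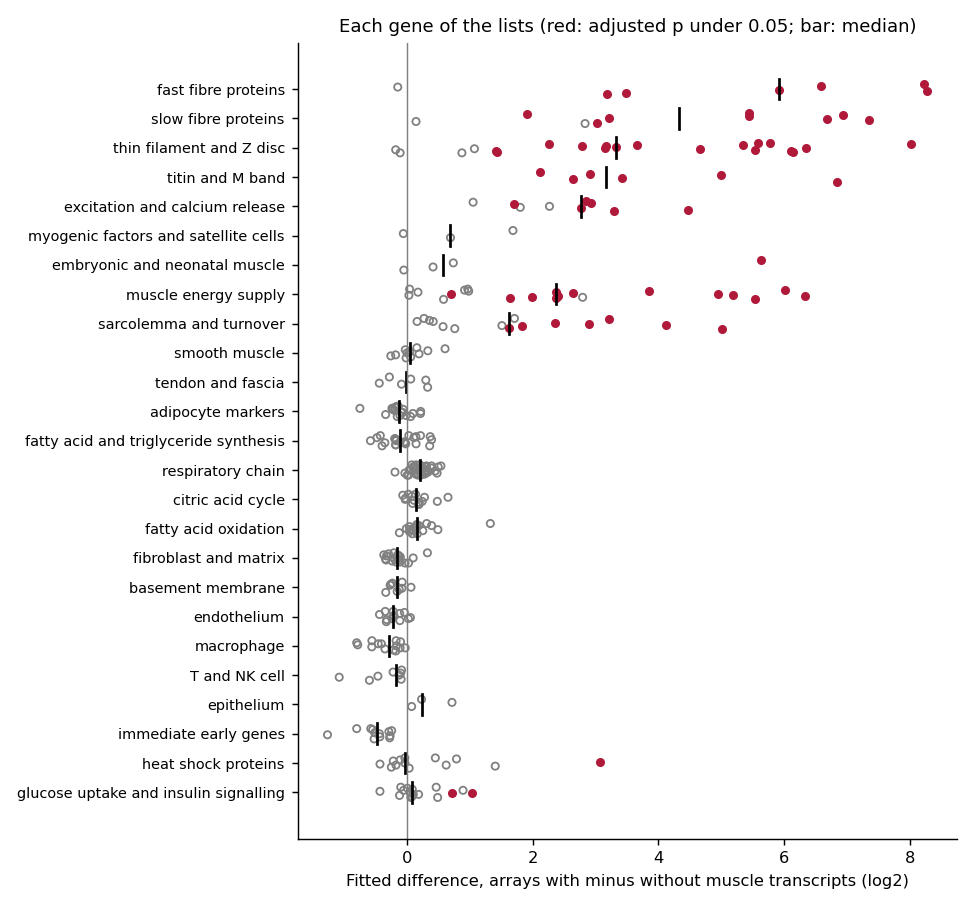
Fitted difference in log2 value, arrays with minus without muscle transcripts (horizontal axis), for each tested gene at its brightest probe set, by gene list (vertical axis), with red points for an adjusted p under 0.05 and black bars for medians. Red points lie in the skeletal muscle lists, 1 in the heat shock list and 2 in the glucose list, and the fat, vessel and immune lists have none.

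Vessel, matrix and immune lists had no call by limma, and most of their differences were negative. The median over all probe sets was also negative, at -0.06, and 720 of 22683 were lower and 933 higher at an unadjusted p under 0.05. Whether the signs in these lists go beyond that background was not tested. The endothelial list had 11 of 13 negative (median -0.22, 2 lower at an unadjusted p under 0.05), the macrophage list 14 of 14 (median -0.28, 1 at unadjusted p) and the T and NK cell list 8 of 8 (median -0.17, 1 at unadjusted p). For single genes, KDR, a growth factor receptor of endothelium, differed by -0.44 (SE 0.167), PECAM1 by -0.22 (SE 0.166), TYROBP of myeloid cells by -0.56 (SE 0.256) and CD68, a macrophage marker, by -0.17 (SE 0.431). VWF, the clotting factor carrier of endothelium, differed by -0.33 (SE 0.143), LYZ, lysozyme, by -0.79 (SE 0.418), and the T cell genes CD3D and CD2 by -1.08 (SE 0.504) and -0.60 (SE 0.362). CDH5, the cadherin of endothelial junctions, was under all 34 arrays on 4 of the 11, at 6.02, 6.31, 6.54 and 6.86 against at least 6.99, but its fitted difference was -0.24 (SE 0.184). Fibroblast and basement membrane genes had medians of -0.16 in both lists, with 16 of 19 and 8 of 9 negative. In these 2 lists DPT, dermatopontin of the fibroblast matrix, had -0.33 (SE 0.116) and LAMA4, a laminin chain of vessels and fat, -0.27 (SE 0.101). COL6A1, a collagen, had -0.30 (SE 0.261) and HSPG2, perlecan, -0.23 (SE 0.112). Within dogs, the basement membrane mean was lower with muscle transcripts in 6 of 6 dogs, by -0.16 to -0.63, and the endothelial mean in 4 of 6.

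In the list of immediate early genes 0 of 12 passed limma's test. All 12 had a negative difference, with a median of -0.48 beside -0.06 over all probe sets. At an unadjusted p under 0.05 were 4 of the 12, beside 720 lower of all 22683. DUSP1, a phosphatase induced by stress, had -0.55 (SE 0.19, adjusted p = 0.245) and EGR1, an induced transcription factor, -1.27 (SE 0.468, adjusted p = 0.317). Within dogs the list mean was lower in 4 and higher in 2 of 6. Smooth muscle genes (median 0.04, 0 of 11 called, 1 higher at unadjusted p), tendon (-0.02, 0 of 6), nerve sheath (-0.04, 0 of 2), heart (0.23, 0 of 2) and red cell genes (-0.42, 0 of 1) gave no call either, and the last 4 had 0 at an unadjusted p under 0.05. In these lists the differences were 0.60 (SE 0.227) for SYNPO2, -0.18 (SE 0.23) for ACTA2, the smooth muscle actin, -0.44 (SE 0.297) for CILP and -0.28 (SE 0.291) for COMP, both of cartilage and tendon. They were -0.15 (SE 0.15) for PMP22, a myelin protein, 0.08 (SE 0.395) for S100B, 0.31 (SE 0.48) for TNNT2, 0.14 (SE 0.453) for TNNI3 and -0.42 (SE 0.816) for ALAS2, the heme enzyme of red cells.

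Only 14 probe sets were lower with muscle transcripts, and 7 of them carry a single gene symbol, those of the 6 genes below and CDK12, a cyclin-dependent kinase. CD86, a costimulatory receptor of antigen-presenting cells, was at 7.22, 7.47, 7.06, 7.52, 6.90, 7.24, 7.63, 8.09, 7.43, 7.21 and 7.00 on the 11 arrays, and at 6.67 to 9.98 (median 7.66) on the 34. It was below that median on 10 of the 11 arrays and lower in 5 of 5 batches. The fitted difference was -1.02 (SE 0.223, adjusted p = 0.00767).

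TBC1D9, a regulator of vesicle traffic, had a difference of -0.78 (SE 0.175, adjusted p = 0.0105), SYT17, a synaptotagmin, -0.72 (SE 0.149, adjusted p = 0.00419), LYN, a kinase of immune cells, -0.59 (SE 0.156, adjusted p = 0.0428) and STK10, a kinase of lymphocytes, -0.49 (SE 0.127, adjusted p = 0.0413). CD80, which binds the same T cell receptors as CD86, had -1.41 (SE 0.35, adjusted p = 0.0277) at a dim probe set and was named after its values were seen. Its other probe set differed by -0.88 (SE 0.387, adjusted p = 0.553). SYT17 and STK10 were lower in 5 of 5 batches, and TBC1D9, LYN and CD80 in 4 of 5. The classes overlapped for each of these genes. CD86 kept its call in 30 of 37 alternatives, TBC1D9 in 32, SYT17 in 31, CD80 in 19, STK10 in 17 and LYN in 14. With the replicate block as fixed dog terms none of these 6 genes kept its call, and none did without dog 3.

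**Figure D5:**
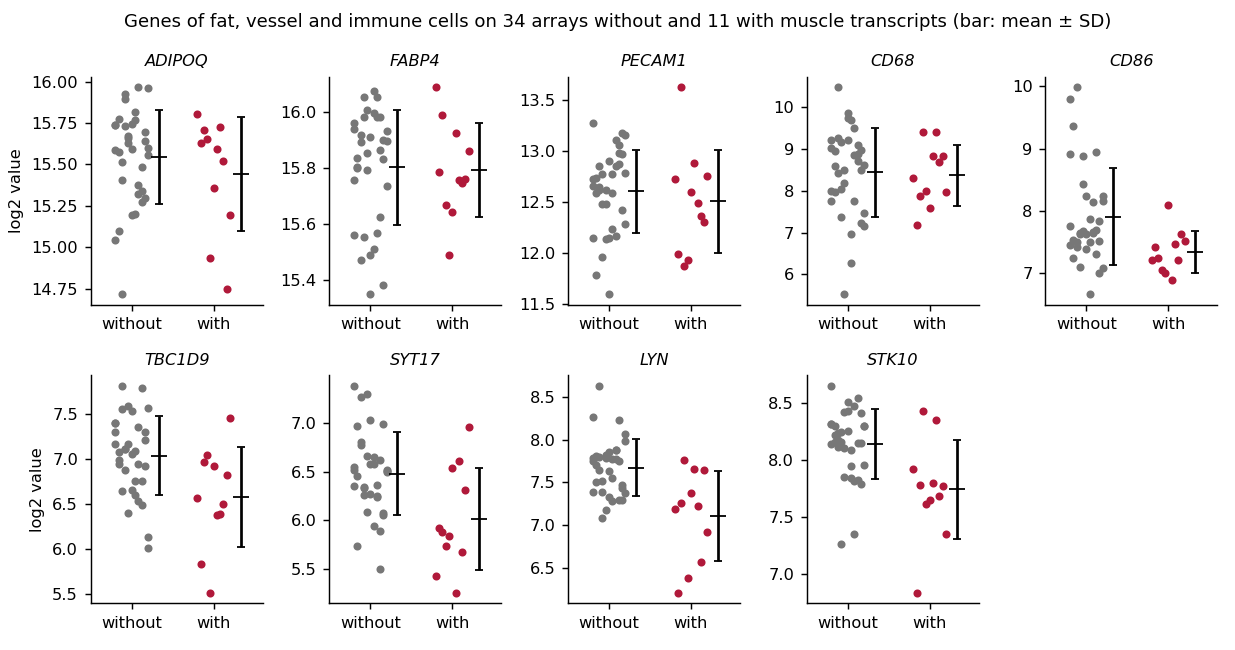
Log2 values of 9 genes on the 34 arrays without and the 11 arrays with muscle transcripts, 1 point per array, with the mean and SD of each class to the right of the points. The classes overlap in every panel, and CD86, TBC1D9, SYT17, LYN and STK10 have the lower mean with muscle transcripts.

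A measure of RNA quality came from array controls at the 3 prime and 5 prime ends of beta-actin and GAPDH, where a larger 3 prime minus 5 prime value means more of the transcript's start was missing. For actin it was 3.13 ± 1.26 (SD, n = 11) with and 2.57 ± 1.02 (SD, n = 34) without muscle transcripts, a difference of 0.56 (two-sided permutation test over arrays with 100000 resamples, p = 0.144, and 0.144 adjusted over the 2 measures). It was larger with muscle transcripts in batches 1, 2, 3 and 6, by 0.32, 1.02, 0.53 and 0.34, and smaller in batch 4, by -0.25. For GAPDH it was 2.28 ± 0.304 with and 2.67 ± 0.181 without, a difference of -0.39 (same permutation test, p = 1e-05, the smallest the resamples can give, adjusted p = 2e-05) that was negative in 5 of 5 batches. Both p-values treat the arrays as independent and leave out dog and batch, although 4 of the 11 arrays are of dog 7. The 2 controls thus differed in opposite directions. GAPDH is itself a glycolytic gene of muscle, and the part of RNA quality in the other differences was not tested beyond the fit with the actin value as a covariate, in which 310 probe sets passed.

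At week 24 the classes were uneven between the feeding groups: muscle transcripts were on the arrays of control dogs 3 and 4, of 4 controls, and of dog 7, of 5 ad libitum dogs. The comparison of ad libitum with control dogs at that week asks what 24 weeks of free feeding changed, and it was run with and without a term for the muscle class. Without the term, 1238 of 22690 probe sets (5.46%) were called, and with it 1197 (5.28%), 800 higher and 397 lower in ad libitum dogs. Of these, 1064 were shared, all with the same sign.

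The term moved the muscle genes and left the fat genes almost in place. The median ad libitum minus control difference of the fast-fibre list went from -3.31 to -1.48, that of thin filament genes from -2.05 to -1.06 and that of slow-fibre genes from -1.04 to 0.54. In these 3 lists 0 genes were called by limma with either model. ACTA1 went from -3.56 (SE 1.68) to -1.82 (SE 0.662). Adipocyte markers had medians of 0.74 and 0.69 with 3 genes called both ways, and fat synthesis genes 1.22 and 1.22 with 12 and 10 called. Respiratory chain genes had medians of 0.52 and 0.59, with 3 called without and 7 with the term. When the 11 arrays were left out altogether, 34 probe sets were called, in a fit with 34 arrays and 20 residual degrees of freedom in place of 30. Single dogs moved the count of 1197 as well: it was 239 with dog 2 left out, 339 with dog 4, 390 with dog 7, 500 with dog 6, 596 with dog 3, 767 with dog 8 and 3147 with dog 5. Leaving out 1 week-24 array gave 643 for dog 3, 517 for dog 4 and 523 for dog 7. Adding the actin control value to the model gave 27.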

How the data were processed

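Total RNA was labelled by the Affymetrix one-cycle method and hybridised to canine arrays, with 1 array for each dog at each week, per the labels' protocols. The values deposited by the authors are log2 expression values per probe set; per the submitters' processing notes they were made with GCRMA (version not given). The log base is read from their range, 0.42 to 17.51. Batch handling by the authors is not given in the sources used here. Of 43035 probe sets, 111 array controls were left out, and 22690 of the other 42924 were above 4 on at least 4 arrays and were tested.

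The classes, gene lists and tests were chosen with earlier results of these data known. Each probe set was fitted by limma 3.58.1 (R 4.3.3, with statmod 1.5.0 for the block) with the muscle class, 10 feeding group by week means, batches 1 to 5 and the dog as a random block, leaving 30 residual degrees of freedom. Arrays of 1 dog are paired by the animal number in the labels, checked on 43 of 45 arrays. P-values were adjusted by the Benjamini-Hochberg method over all tested probe sets (threshold 0.05), and they measure the spread between these arrays only. Batch 6 is all of week 24 and cannot be told apart from it. Of the tested probe sets, 16915 had 1 gene symbol in the platform table, 271 several and 5504 none.

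The 5 marker genes are named throughout. In each of the other lists, the text names up to 3 called genes of each sign with the largest difference, or the 2 with the smallest p where none was called. Outside the lists it names the 10 highest and 10 lowest called genes, the latter with a mean above 6 on the 34 arrays (5 existed). Also named are ACTA1, MYH7, MB, ADIPOQ, LEP, FABP4, PPARG, FASN, SCD, PECAM1 and CD68, and list members with their values. A gene stands for its brightest probe set unless another is mentioned. On simulated data of this design, 200 of 22690 probe sets were changed. Of these, 38 of 50 shifts of 1 log2 unit upward and 50 of 50 shifts of 4 were recovered. In addition, 8 unchanged probe sets were called. The simulated shifts had fixed sizes, whereas muscle genes such as MYH1 had an SD of 3.44 with and 0.143 without muscle transcripts. The recovery therefore does not show how reliable the calls of such genes are. Summaries used Python 3.11.15 with pandas 2.3.3 and numpy 2.4.6. Alternatives varied the threshold, terms, filter, scaling, and the dogs and arrays used.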

Additional observations from a re-analysis of the deposited data

Results flagged for a closer look

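In groups of 4 or 5 arrays (1 feeding group at 1 week), an array was set apart when its gap to the nearest other array was beyond Dixon's 95% critical value for the group's range. Of 70 group and measure pairs, 17 were set apart, and chance alone sets apart about 1 in 20 groups. Most were arrays with muscle transcripts in a group where few others had them. The marker mean set the classes, so its flags on those arrays follow from the rule and are description only. The marker mean was 15.56 in control dog 4 at week 8 (others 2.52 to 2.55) and 13.96, 9.75 and 6.64 in ad libitum dog 7 at weeks 8, 12 and 24. The slow-fibre mean was 15.72 in control dog 4 at week 8 and 9.54 in the same dog at week 24, and 9.06, 9.00 and 4.48 in dog 7 at weeks 8, 12 and 24. The mean of CHRNA1, CHRNG, ACTC1 and MYL4 was 9.77 in control dog 4 at week 8, with the others at 3.11 to 3.26. These genes were picked after their values on that array were seen, so this flag is description only as well.

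The mean of KRT8, KRT18 and EPCAM was 11.57 in control dog 4 at week 24 (others 2.96 to 3.29). The mean of KRT1 and KRT10 was 6.53 in ad libitum dog 7 at week 24 (others 2.47 to 2.54) and 5.60 in control dog 3 at week 0 (others 2.48 to 2.50). Of the arrays without muscle transcripts, ad libitum dog 5 at week 4 had a marker mean of 3.18, with the others at 2.46 to 2.66. Control dog 9 at week 4 had a slow-fibre mean of 3.19 (others 3.50 to 3.57), and ad libitum dog 8 at week 12 a mean of KRT8, KRT18 and EPCAM of 3.20 (others 2.95 to 3.01), all of these under 4. The mean of the 7 adipocyte markers was 11.62 in ad libitum dog 5 at week 24, with the other 4 dogs at 13.53 to 13.87.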

How the results depend on the processing

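The count of 318 differing probe sets was 112 with the replicate block as fixed dog terms and 321 with no replicate block. The same count was 605 with the marker mean as a continuous term, 90 with probe sets above 6 on at least 10 arrays (fewer were tested), and 23 in only the dogs with both kinds of array (30 arrays). Leaving out 1 dog or 1 array with muscle transcripts gave 87 to 566. The week-24 count of 1197 was 1191 with no replicate block, 34 with the 11 arrays left out, 27 with the actin value as a covariate, 31 in only the dogs with both kinds of array, and 239 to 3147 with 1 dog or array left out. Centring on ribosomal proteins gave 1049 higher and 143 lower at week 24, in place of 800 and 397, and moved the median of all probe sets from 0.00 to 0.14. The cause of these shifts was not tested, other than fewer samples or probe sets where stated. Settings planned for the comparison of classes but read at week 24 as well were chosen after seeing the data. The difference in arrays per dog ran from -0.75 to 0.25 with 1 dog left out, with the sign turned without dog 2, 3, 4 or 6. The actin difference was positive with a p above 0.05 in each alternative run, from 0.225 to 0.757 with 1 dog left out. None of the 19 called genes named outside the muscle lists changed sign. Each of the 11 arrays is 1 sample of 1 dog, so that patterns seen on a single array have no replicate.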
